A study of Mus musculus with 8 samples.

Results

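The miR-26 family of the mouse heart was taken as every entry of the count tables named mir-26a-1, mir-26a-2 or mir-26b, whatever species the entry was annotated in. In all, 5 of the 764 entries met this rule. They were the 3 mouse hairpins and the human entries of mir-26a-2 and mir-26b, which are annotations that reads of mouse hearts were listed under and not human RNA. All 5 were present in 7 hearts, and the human mir-26b entry was missing in female heart 1, which left 4. Once entries of the same arm had been summed over species and over copies that share their reads, 4 of 697 miRNAs belonged to the family. These were miR-26a-5p, miR-26b-5p, miR-26a-2-3p and miR-26b-3p. A 5th product, miR-26a-1-3p, is annotated but had no counts in any heart.

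The tables come from small RNA sequencing of whole hearts of wild-type C57Bl6/J mice, 4 female and 4 male, aged 4 to 6 weeks and called adult in the labels. No treatment, transgene or deletion is recorded for either sex. Each heart was extracted on its own and gave 1 library. The spread within a sex thus holds differences between animals together with those of extraction, library preparation and sequencing, which cannot be told apart. The question the design poses is whether the sexes differ. Whole tissue was used, so fewer cells of a type and less RNA per cell cannot be told apart.

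A microRNA is cut from a hairpin that leaves a 5′ and a 3′ arm, and as a rule 1 arm is kept as the guide that pairs with target mRNAs through its seed, bases 2 to 8. In the miR-26 family the 5′ arm is the guide. The hairpins sit within the genes of the small C-terminal domain phosphatases Ctdspl, Ctdsp2 and Ctdsp1, which act on RNA polymerase II and on the retinoblastoma protein, and are transcribed with them. In mouse and human cells miR-26 is known to restrain the cell cycle, and Ezh2, a histone methyltransferase, and the potassium channel gene KCNJ2 are among its described targets.

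The mature products are shown first, because the shared 5′ arm and the distinct 3′ arms decide which hairpin a read can be assigned to. The sequences are those of RefSeq for GRCm38.p6, written 5′ to 3′ with the seed in capitals.
miR-26a-5p: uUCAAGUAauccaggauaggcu
miR-26b-5p: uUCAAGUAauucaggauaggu
miR-26a-1-3p: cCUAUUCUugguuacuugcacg
miR-26a-2-3p: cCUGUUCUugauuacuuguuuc
miR-26b-3p: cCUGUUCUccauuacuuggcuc

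The 5′ arm of mir-26a-1 and mir-26a-2 is the same 22-base sequence, and miR-26b-5p has 21 bases. Counted from 1 at the 5′ end, miR-26a-5p and miR-26b-5p differ by C11U and C21U, outside the seed. Among 1679 mature mouse names in the reference, no others carry the seed UCAAGUA. The 3′ arms of the miR-26a copies differ at 6 positions, and the first of these, A4G, lies in the seed. With the seed CUGUUCU, miR-26a-2-3p has the same bases 2 to 8 as miR-26b-3p, from which it differs at 4 positions by U9C, G10C, U19G and U20C. That seed also belongs to miR-6932-3p, which had 11 counts in 1 heart, and to miR-7039-3p, which had none. The seed CUAUUCU of miR-26a-1-3p is found in no other mouse name of the reference.

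The hairpins are shown for the length and placing of these arms, which are in capitals.
mir-26a-1: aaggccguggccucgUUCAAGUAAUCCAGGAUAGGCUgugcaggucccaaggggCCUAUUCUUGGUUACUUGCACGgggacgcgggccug
mir-26a-2: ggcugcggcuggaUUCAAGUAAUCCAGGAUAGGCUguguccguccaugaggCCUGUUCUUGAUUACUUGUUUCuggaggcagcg
mir-26b: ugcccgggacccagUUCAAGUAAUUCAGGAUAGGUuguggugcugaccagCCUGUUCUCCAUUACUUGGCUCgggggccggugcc

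On GRCm38, the assembly called mm10 in the submitters' processing notes, mir-26a-1 spans 90 bases of chromosome 9 (119031796 to 119031885, plus strand). It lies in an intron of Ctdspl, with no exon over it in any of the 3 transcripts that span it. mir-26a-2 spans 84 bases of chromosome 10 (126995530 to 126995613, plus strand) within Ctdsp2. An annotated exon overlaps it in 2 of the 3 spanning transcripts, 1 protein coding and 1 with a retained intron, and it is intronic in the other protein-coding transcript. mir-26b spans 85 bases of chromosome 1 (74394310 to 74394394, plus strand) and is intronic in both transcripts of Ctdsp1 that span it. All 3 hairpins lie on the strand of their host gene.

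Libraries held 29900500 to 38894987 counts, of which 29169537 to 37791810 lay on mature arms and are the base of every share. Mouse entries held 86.7 to 91.7% of all counts. Among miRNAs that mark cardiac muscle, 5 of 6 were found, with a summed share of 0.477 to 0.988% in female and 0.346 to 0.666% in male hearts, and miR-133a-3p was listed at 0. More counts were listed under entries with names of muscle miRNAs that this list does not hold. On average miR-1b-5p held 29.0% of mature counts, the human entry miR-1-1-3p 2.34% and miR-133c-5p 0.660%. Of their reads, 3.33, 0 and 2.10% were exact on average, and what the inexact reads are was not tested. The endothelial list of 2 held 6.11 to 7.80% and 6.20 to 10.6%, and the smooth muscle list of 2 held 5.67 to 6.55% and 4.99 to 6.32%. Red cell miRNAs reached at most 0.123% and leukocyte miRNAs 0.0649%. Levels in CPM (counts brought to a common library total by the cpm function of edgeR) were scaled by TMM factors, which adjust libraries to each other and ran from 0.896 to 1.21, highest in female heart 3.

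miR-26a-5p was the 4th most abundant miRNA by mean share. Its counts ran from 1096639 to 2362410 per heart, 12246299 in all. In the female hearts 1 to 4 it held 3.93, 6.25, 5.64 and 4.73% of mature counts. In the male hearts 1 to 4 it held 3.24, 4.21, 5.15 and 4.12%. Female heart 2 was the highest of the 8 and male heart 1 the lowest, and the sexes overlapped. The mean was 4.66% ± 0.984 (SD, n = 8), a coefficient of variation of 21.1%.

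Within single hearts the rank of miR-26a-5p ran from 3 to 10, with the 10th place in male heart 1. Its neighbours in the order of mean share did not stand apart from it. miR-143-3p, a smooth muscle miRNA, lay directly above at 5.64% ± 0.636 (SD, n = 8), and miR-26a-5p exceeded it in 2 of 8 hearts. miR-148a-3p lay directly below at 3.73% ± 1.00 (SD, n = 8), and miR-26a-5p exceeded it in 5 of 8 hearts. A mature miRNA is read whole, so no scaling by length was made, and how well the library chemistry captured each sequence was not measured.

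miR-26b-5p ranked 37th. It had 62678 to 180175 counts per heart and 787040 in all. It held 0.246, 0.477, 0.360 and 0.259% in the female hearts 1 to 4, and 0.185, 0.285, 0.322 and 0.256% in the male hearts 1 to 4. As with miR-26a-5p, female heart 2 was the highest and male heart 1 the lowest. The mean was 0.299% ± 0.0889 (SD, n = 8), with a coefficient of variation of 29.8% and ranks from 30 to 43. Its neighbours were miR-149-5p at 0.302% ± 0.0754 and miR-10a-5p at 0.295% ± 0.0468 (SD, n = 8), and miR-26b-5p was above them in 2 and 3 of 8 hearts, so the order of these miRNAs was within their spread.

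**Figure D1:**
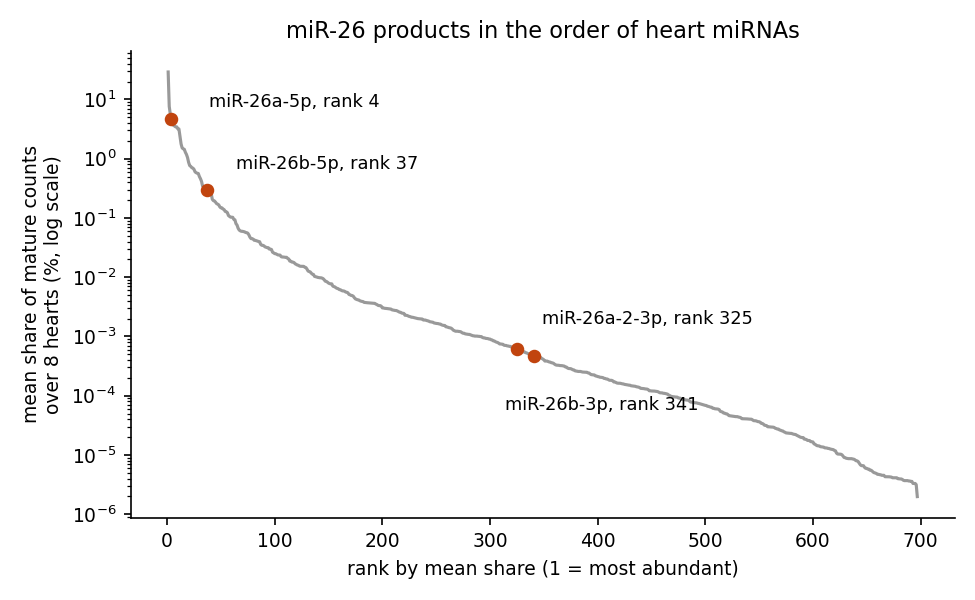
Mean share of mature counts over the 8 hearts (percent, log scale) of 697 miRNAs against their rank, with the 4 detected miR-26 products marked. The guide arms stand at ranks 4 and 37 and the 3′ arms at ranks 325 and 341.

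Of all counts of the family, miR-26a-5p made up 93.9% and miR-26b-5p 6.04%. The share of miR-26a-5p stayed between 92.9 and 94.8% in single hearts. The ratio of miR-26a-5p to miR-26b-5p was 16.0, 13.1, 15.7 and 18.3 in the female hearts 1 to 4, and 17.5, 14.8, 16.0 and 16.1 in the male hearts 1 to 4. Its extremes were both female hearts, 2 and 4, and the male values lay between them. On the log2 scale female hearts averaged 3.97 ± 0.20 and male hearts 4.01 ± 0.10 (SD, n = 4 each), so that female minus male was -0.04 (exact two-sided permutation test with 70 arrangements, p = 0.83, adjusted p = 0.943). This p and those of the other ratios and shares were adjusted over 6 such tests, and the smallest p that 4 against 4 can give is 0.0286. The sign of this difference turned to 0.048 without female heart 2 and to 0.0035 without male heart 1.

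The ratio was larger among reads that match the mature sequence exactly. With these alone, miR-26a-5p exceeded miR-26b-5p 32.2-fold in male heart 4, the lowest, and 57.4-fold in female heart 4, the highest. Among the other reads, which differ from the listed sequence, the excess was 6.45-fold in female heart 2 to 9.30-fold in male heart 3. The ranges did not overlap, which is another view of the exact shares given below and not a separate result. Counted on exact reads, the female minus male difference of the log2 ratio was 0.22, of the opposite sign to that on all reads (exact permutation p = 0.343, adjusted p = 0.686).

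The 5′ counts did not separate the Ctdspl copy from the Ctdsp2 copy. In female heart 1, mir-26a-1 was listed with 573857 counts on its 5′ arm and mir-26a-2 with 573905. Over the 8 hearts the listed counts were at most 63 apart, and reads unique to 1 copy were 0 for mir-26a-1 and 0 to 30 for mir-26a-2. Exact 5′ counts of the copies were equal in 3 hearts and 1 apart in 5. In 32 other pairs of copies, 99 of 204 heart values were equal and 105 were 1 apart, and none was further apart. Counting each read at both entries would leave no difference of 1, whereas dividing shared reads evenly leaves just these differences. The counts of the copies were therefore summed, on the reading that each shared read was divided between them.

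The copies do differ in their 3′ arms, and only the arm of the Ctdsp2 hairpin was listed with reads. miR-26a-1-3p was listed at 0 in all 8 hearts. miR-26a-2-3p had 133, 556, 175 and 171 counts in the female hearts 1 to 4, and 92, 175, 210 and 161 in the male hearts 1 to 4. Female heart 2 stood far above the other 3 female hearts, and male heart 1 was again the lowest. The tables list no unique-read value from 1 to 9, against 1382 values from 10 to 19, so a count of 0 sets no upper limit, and small counts carry more error than counting alone gives. No ratio of the 3′ arms was formed, since a pseudocount would set it.

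miR-26b-3p had 109, 256, 218 and 160 counts in the female hearts 1 to 4, and 94, 130, 175 and 109 in the male hearts 1 to 4. Female heart 2 was the highest and male heart 1 the lowest. The human mir-26b entry supplied 141 of the 1251 counts, from 0 to 17.0% of a heart's value. By mean share miR-26a-2-3p ranked 325th and miR-26b-3p 341st. The coefficient of variation of miR-26a-2-3p was 57.8% and that of miR-26b-3p 33.4%, against 21.1 and 29.8% of the 5′ arms. In the order of all miRNAs miR-26a-2-3p stood between let-7b-3p and miR-326-3p, and miR-26b-3p between miR-669c-5p and miR-532-3p.

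Arm use was thus far to the side of the guide. Together the 3′ arms made up 0.0160 to 0.0319% of the counts of the family. For miR-26a the 5′ arm exceeded the 3′ arm 4245-fold in female heart 2, the lowest, and 11856-fold in male heart 1, the highest. For miR-26b the excess was 499-fold in female heart 3 to 778-fold in male heart 4. Every heart's excess was larger for miR-26a than for miR-26b. Reads of rare 3′ sequences may be missing, as no unique-read value from 1 to 9 was listed, and this would raise these ratios. By how much was not tested. For miR-26a the log2 ratio averaged 12.90 ± 0.57 in females and 13.08 ± 0.32 in males (SD, n = 4 each), and the difference, -0.18, was within this spread (exact permutation p = 0.714, adjusted p = 0.943). It turned to 0.10 without female heart 2. For miR-26b the averages were 9.23 ± 0.22 and 9.38 ± 0.17 (SD, n = 4 each), and the difference was -0.15 (exact permutation p = 0.343, adjusted p = 0.686).

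**Figure D2:**
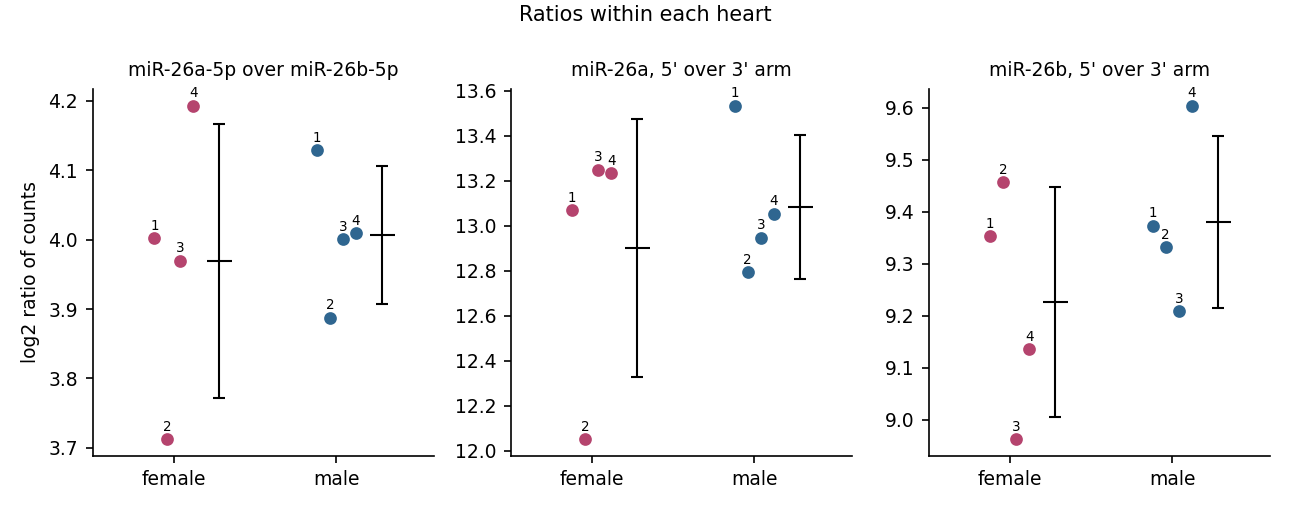
Log2 ratios of counts within each heart for miR-26a-5p over miR-26b-5p and for the 5′ over the 3′ arm of miR-26a and of miR-26b. Points are hearts, numbered by replicate, and bars are the mean ± SD of the 4 hearts of a sex; the sexes overlap in each panel, and female heart 2 lies lowest in the first and second.

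The exact share, the percent of a product's reads that match its listed mature sequence, set the 5′ arms apart. Of miR-26a-5p reads, 59.5, 60.2, 60.4 and 61.4% were exact in the female hearts 1 to 4, and 64.4, 61.8, 52.2 and 60.3% in the male hearts 1 to 4. Of miR-26b-5p reads, 22.1, 19.1, 16.9 and 19.6% were exact in the female hearts, and 21.1, 23.6, 17.6 and 30.1% in the male hearts. The lowest value of miR-26a-5p, in male heart 3, was above the highest of miR-26b-5p, in male heart 4. All mature reads together were exact in 23.8 to 27.0%. Among the 61 miRNAs of at least 1000 CPM, whose median exact share was 23.7%, miR-26a-5p ranked 6th and miR-26b-5p 34th. How the inexact reads differ (in length or in bases) is not recorded in the tables.

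The exact share of the 3′ arms lay between those of the 5′ arms in all 8 hearts for miR-26a-2-3p and in all but male heart 4 for miR-26b-3p, at 39.2 to 57.6% for miR-26a-2-3p and 26.6 to 47.4% for miR-26b-3p. The human mir-26b entry counts in the latter, and all of its 141 reads were exact to the human listing. On the mouse entry alone the exact share of miR-26b-3p was 17.5 to 37.8%, lowest in male heart 4 and highest in male heart 3. Rare variants of the 3′ arms may be missing, as no unique-read value from 1 to 9 was listed. This would raise their exact shares, which are thus not strictly comparable with those of the 5′ arms. Between the sexes, the share of miR-26a-5p averaged 60.4% ± 0.808 in females and 59.7% ± 5.28 in males (SD, n = 4 each), and the difference was 0.720 points (exact permutation p = 0.943, adjusted p = 0.943). Without male heart 3 it was -1.78 points. That of miR-26b-5p averaged 19.4% ± 2.15 in females and 23.1% ± 5.28 in males (SD, n = 4 each), and the difference was -3.71 points (exact permutation p = 0.257, adjusted p = 0.686). It was -1.37 points without male heart 4.

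**Figure D3:**
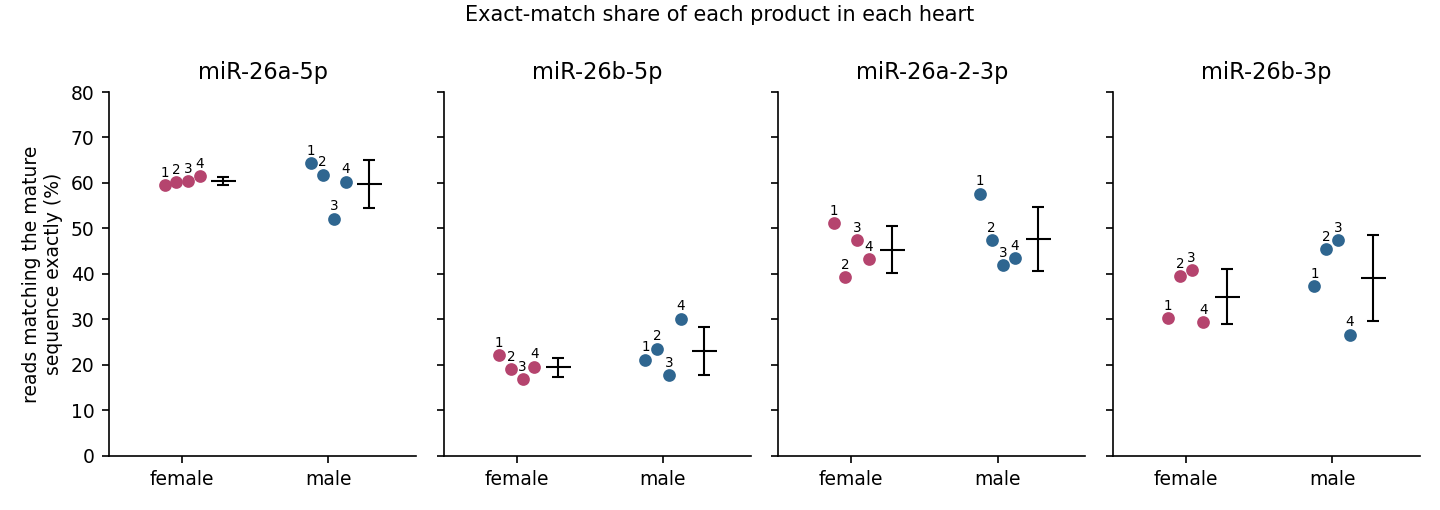
Percent of reads of each product that match its mature sequence exactly, in each heart, with the human entry counted in miR-26b-3p. Points are hearts, numbered by replicate, and bars are the mean ± SD of the 4 hearts of a sex; miR-26a-5p lies between 52.2 and 64.4% and miR-26b-5p between 16.9 and 30.1%.

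The hairpins also differed in the share of reads listed as other than either mature arm, which are in no library size or test. They made up 1.24 to 1.99% of the reads of the mouse mir-26a hairpins and 7.69 to 15.1% of those of mir-26b, against 2.06 to 3.08% over all hairpins. For mir-26b the lowest heart was female 3 and the highest female 1, so the range over both sexes was spanned by female hearts. Most of these reads were listed as exact, 76.4 to 84.3% for mir-26a and 81.4 to 85.6% for mir-26b. In number they were not more for mir-26b. Summed over the hearts, the mouse entries held 113955 other reads for mir-26a-1, 115039 for mir-26a-2 and 99561 for mir-26b. Their totals were 6236994, 6239972 and 887711 reads.

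No product of the family differed between the sexes past the threshold. In edgeR's quasi-likelihood test on all 575 miRNAs kept by its filter, 0 of the 4 products had an adjusted p under 0.05, against 0.174% of all miRNAs tested, which is 1 miRNA. None of the 4 had an unadjusted p under 0.05 either, against 5.04% of all, and the same held with DESeq2 and limma-voom. The adjusted p was 0.809 for each product. In none were the groups apart, against 2.78% of all miRNAs whose female and male hearts did not overlap, or 2.09% with the female hearts above.

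The level of miR-26a-5p was 41298, 61382, 46598 and 49002 CPM in the female hearts 1 to 4, and 34749, 40595, 50672 and 45956 CPM in the male hearts 1 to 4. The means were 49570 ± 8507 and 42993 ± 6867 CPM (SD, n = 4), with the highest female and the lowest male heart as in the shares. The log2 fold change of female over male was 0.21 (SE 0.18, 95% interval -0.18 to 0.59). A change of more than 0.59 upward or 0.18 downward thus lay outside the interval. Without female heart 2 the value was 0.025.

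For miR-26b-5p the level was 2577, 4681, 2975 and 2679 CPM in the female hearts 1 to 4, and 1986, 2743, 3166 and 2853 CPM in the male hearts 1 to 4. Apart from female heart 2 and male heart 1, the values of both sexes lay within 2577 to 3166 CPM. The log2 fold change was 0.26 (SE 0.23, 95% interval -0.23 to 0.76), and -0.031 without female heart 2. On exact reads it was 0.0055.

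The 3′ arms had the widest intervals. miR-26a-2-3p stood at 4.79, 14.4, 4.77 and 5.07 CPM in the female hearts 1 to 4, and at 2.92, 5.71, 6.40 and 5.39 CPM in the male hearts 1 to 4. Apart from female heart 2, the female values lay within the male range. The log2 fold change was 0.51 (SE 0.39, 95% interval -0.34 to 1.37), and -0.11 without female heart 2.

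miR-26b-3p stood at 3.92, 6.65, 5.95 and 4.75 CPM in the female hearts 1 to 4, and at 2.98, 4.24, 5.34 and 3.65 CPM in the male hearts 1 to 4. The female hearts 2 and 3 were above every male heart, and the female hearts 1 and 4 were within the male range. The log2 fold change was 0.39 (SE 0.26, 95% interval -0.18 to 0.96), and 0.20 without female heart 2.

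All 4 fold changes were above 0, with a median of 0.33, against a median of 0.03 over all miRNAs tested and 54.8% of them above 0. These products share hearts and, in part, hairpins, and without female heart 2 the values ran from -0.11 to 0.20. The share of mature counts held by the family averaged 5.48% ± 1.12 in females and 4.44% ± 0.839 in males (SD, n = 4 each). The difference was 1.03 points, and the sexes overlapped (exact permutation p = 0.2, adjusted p = 0.686). Scaling by library size alone gave fold changes of 0.30, 0.36, 0.59 and 0.49 for miR-26a-5p, miR-26b-5p, miR-26a-2-3p and miR-26b-3p, where the median of all miRNAs was 0.13.

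**Figure D4:**
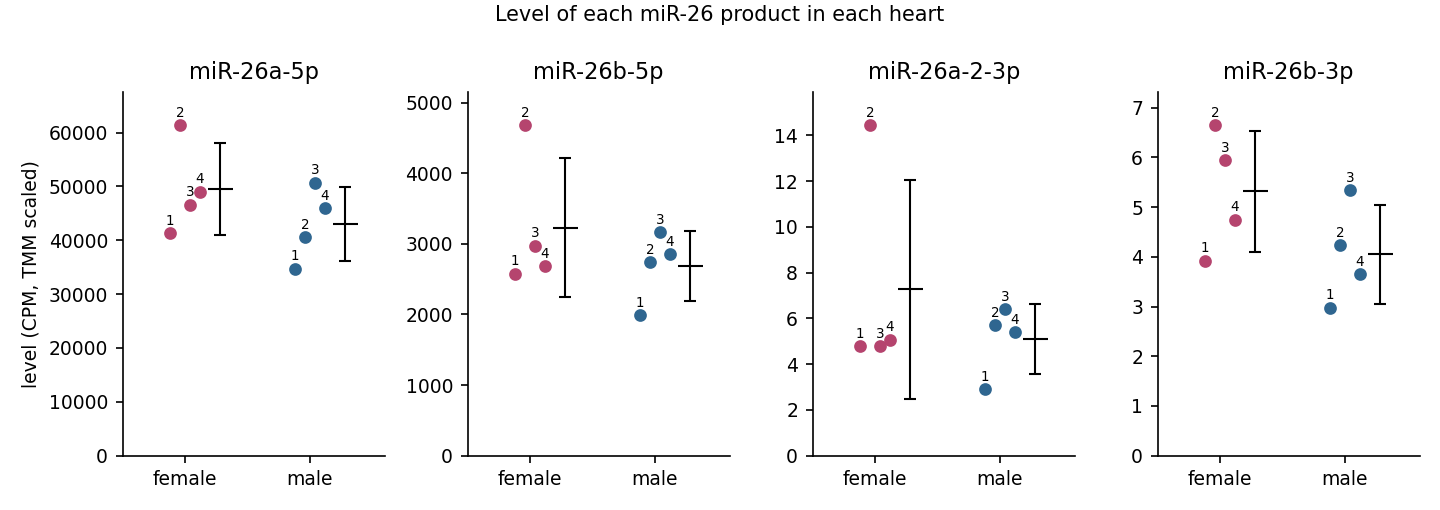
Level of each detected miR-26 product in each heart (CPM, TMM scaled, axes from 0). Points are hearts, numbered by replicate, and bars are the mean ± SD of the 4 hearts of a sex; female and male hearts overlap in each panel, and female heart 2 is the highest in all 4.

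Counted on all reads, the members of the family followed each other over the 8 hearts, with the same extreme hearts at either end. Log2 CPM of miR-26a-5p and miR-26b-5p had a Pearson r of 0.935 (exact permutation p = 0.00228, adjusted p over 3 relations 0.00636) and a Spearman rho of 0.810 (exact permutation p = 0.0218, adjusted p = 0.0327). Without female heart 2 and male heart 1, the hearts farthest from the median of miR-26a-5p, r was 0.656 (n = 6, exact permutation p = 0.163), so the call rests on those hearts. Leaving them out also narrows the range, and without female heart 2 alone r was 0.882. For miR-26a-5p with miR-26a-2-3p r was 0.893 (exact permutation p = 0.00761, adjusted p = 0.00761) and rho 0.643 (p = 0.0962, exact permutation, adjusted p = 0.0962), and r fell to 0.319 (exact permutation p = 0.540) without these hearts. For miR-26b-5p with miR-26b-3p r was 0.857 (exact permutation p = 0.00424, adjusted p = 0.00636) and rho 0.810 (exact permutation p = 0.0218, adjusted p = 0.0327), and r was 0.621 (exact permutation p = 0.188) without them. The levels are parts of 1 total, so a shift in an abundant miRNA moves all others. These relations were not tested on exact reads, which were 16.9 to 30.1% of the reads of miR-26b-5p. Over the hearts the ratio of miR-26a-5p to miR-26b-5p ran from 13.1 to 18.3 on all reads. On exact reads it ran from 32.2 to 57.4.

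Outside the family, the miRNAs of at least 100 CPM whose log2 CPM was most like that of miR-26a-5p over the 8 hearts were miR-145a-3p (r = 0.962), miR-872-5p (0.917) and miR-499-5p (0.857). For miR-26b-5p they were miR-145a-3p (r = 0.985), miR-499-5p (0.923) and miR-199a-3p (0.910). The median r over the 136 candidates was 0.02 for miR-26a-5p and -0.01 for miR-26b-5p. The other 5′ arm of the family would have come directly after miR-145a-3p in both orders. miR-145a-3p is the lesser arm of the smooth muscle hairpin mir-145a, and miR-499-5p, from an intron of the myosin gene Myh7b, is a cardiac muscle miRNA. These r values are a description over 8 libraries. Without female heart 2, r with miR-26a-5p was 0.973 for miR-145a-3p, 0.907 for miR-872-5p and 0.745 for miR-499-5p. With miR-26b-5p it was 0.957 for miR-145a-3p, 0.903 for miR-499-5p and 0.700 for miR-199a-3p.

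The summed share of the cardiac muscle list was 0.477, 0.988, 0.832 and 0.562% in the female hearts 1 to 4 and 0.346, 0.666, 0.619 and 0.606% in the male hearts 1 to 4, highest in female heart 2 and lowest in male heart 1, as were miR-26a-5p and miR-26b-5p. Its most abundant member was miR-499-5p, at 0.242 to 0.811%, which is also among the miRNAs named for likeness, so the list is not independent of it. The larger entries with names of muscle miRNAs had other extremes. miR-1b-5p was highest in female heart 1 at 32.9% and lowest in female heart 3 at 22.8%, miR-1-1-3p was lowest in female heart 2, and miR-133c-5p was highest in female heart 3. The endothelial list was highest in male heart 4 and the smooth muscle list in female heart 4. The part of the cell makeup of the samples in the levels of miR-26 was not tested.

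Other miRNAs from introns of host genes with paralogs were set beside the family. Of the 11 miRNAs listed, miR-33-5p and miR-153-3p were too low to be tested, and the rest gave 10 tested entries, as the arms of mir-128-1 and mir-128-2 were counted apart. By edgeR 0 of the 10 passed, against 0.174% of all miRNAs tested. An unadjusted edgeR p under 0.05 was found for 1, miR-15b-5p from Smc4 (log2 fold change -0.74, adjusted p = 0.785), against 5.04% of all. DESeq2 gave 0 past the threshold and 1 with an unadjusted p under 0.05, against 3 and 34 of all 575 miRNAs. With limma-voom it was 0 of both, against 1 and 38 of 575. The median log2 fold change of the 10 by edgeR was -0.13, with 4 of 10 above 0, against 0.03 and 54.8% over all miRNAs. The myosin miRNAs miR-208a-3p, miR-208b-3p and miR-499-5p stood at 0.26, 0.26 and 0.28, and the Pank miRNAs miR-103-3p and miR-107-3p at -0.11 and 0.01, none of them past the threshold.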

How the data were processed

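Per the file headers, the deposited counts are reads per miRNA hairpin entry (mouse, human or rat), split into the mature 5′ arm, the mature 3′ arm and other reads, with exact and unique reads apart. The submitters' processing notes name STAR and mm10, without a role or version. Which tool counted the reads, and with what trimming and filters, is not given in the sources used here. Sex and replicate number came from the labels. The members and lists were chosen with earlier results of these data known.

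Entries of the same name and arm were summed over species, and numbered copies where under 50% of their mouse reads were unique (42 groups). A rat entry mir-26a, without a copy number, was left out of the family. Positions are from RefSeq and GENCODE on GRCm38. Sexes were compared with edgeR 4.0.16 (TMM, filterByExpr with a minimum count of 10 and total of 15, quasi-likelihood test on sex alone, R 4.3.3), fitted on all 575 miRNAs that passed (99.9984% of mature counts), with Benjamini-Hochberg adjustment and a threshold of 0.05. Ratios, shares and correlations, computed with Python 3.11.15 and scipy 1.17.1, were tested with two-sided exact permutation tests; log2 ratios used a pseudocount of 0.5. The edgeR step was tested on simulated data. Named besides the members are the neighbours in rank, the 3 miRNAs most like each 5′ arm, those that share its seed, the host gene list and the marker lists. Alternatives were other scalings and filters, DESeq2 1.42.0, limma-voom (limma 3.58.1), other units and reads, a replicate block, and leaving out each heart.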

Additional observations from a re-analysis of the deposited data

Results flagged for a closer look

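Female heart 2 stood apart from the other female hearts in miR-26a-2-3p, at 14.4 CPM against 4.77 to 5.07 CPM. In the same heart the log2 ratio of the 5′ to the 3′ arm of miR-26a was 12.05, against 13.07 to 13.25 in the other female hearts. The second value follows in part from the first, since both hold the counts of that arm. Of 28 groups of 4 hearts examined by Dixon's test, 2 were set apart, where chance gives about 1 in 20, which is 1.4 groups.

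Reads were also found under entries that are in none of the 4 miR-26 products. The human mir-26a-2 entry held 29058 reads over the 8 hearts, all listed as other than either arm and so in no test, at 2357 to 5514 per heart. The rat mir-26a entry held 419 reads on its 5′ arm, at 37 to 89 per heart. A human mir-1297 entry, whose miRNA is known in humans for the same seed as miR-26, held 2157 reads on its 3′ arm and none that were exact. Of these, 914 were in male heart 3 and 700 in female heart 2, against 46 to 118 in the other hearts. These last 2 entries were tested among all miRNAs, and neither passed in edgeR, with log2 fold changes of 0.20 (adjusted p = 0.932) for the rat entry of miR-26a and -0.36 (adjusted p = 0.989) for miR-1297-3p.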

How the results depend on the processing

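The number of miRNAs past the threshold between the sexes, 1 in the test reported, was 0 with RLE, upper quartile or library size scaling, without a filter, with entries as deposited, with unique reads, with the larger copy alone, and with TMM on each of the 7 other reference libraries (chosen after seeing the data; edgeR had picked female 2), with 28 to 45 miRNAs at an unadjusted p under 0.05. It stayed at 1 with limma-voom, with mouse entries only, with exact reads and with a filter of 10 CPM in 4 libraries. It was 3 with DESeq2 and 0 to 2 when leaving out 1 heart. No product of miR-26 passed under any setting. Their log2 fold changes stayed above 0 except without female 2, in ranges, leaving out 1 heart, of -0.031 to 0.36 for miR-26b-5p and -0.11 to 0.72 for miR-26a-2-3p.

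A replicate block gave 4 calls, 1 up and 3 down, none in the family. Same-numbered hearts correlated in their deviations with r of 0.50, 0.340, 0.0372 and -0.0051, and 4 of 8 hearts matched their own number best among the hearts of the other sex. The labels state no pairing, so the hearts were not treated as paired. Of these r, 2 were near 0 and the others were 0.50 and 0.340, and whether a number marks a shared batch was not tested. The family share was higher in the female of all 4 same-numbered pairs (exact sign-flip p = 0.125, the smallest 4 pairs can give).

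Leaving out 1 heart, the female minus male differences ran from -0.11 to 0.048 for the log2 ratio of miR-26a-5p to miR-26b-5p (above 0 without female 2 or male 1), from -0.30 to 0.10 and from -0.23 to -0.06 for the arm ratios of miR-26a and miR-26b, from 0.615 to 1.46 points for the family share, and from -1.78 to 2.30 and from -5.53 to -1.37 points for the exact shares of miR-26a-5p and miR-26b-5p. The family share difference, 1.03 points on all reads, was 2.93 points on exact reads, 0.603 with the larger copy alone and 0.0903 on unique reads, each a share of another total or of fewer reads. Exact reads gave 0.22 for the first of these ratios. The cause was not tested. The correlations lost their calls without the extreme hearts, at 0.656, 0.319 and 0.621. Without female 2 alone, r was 0.882, 0.793 and 0.818. Unique reads gave no value for miR-26a-5p, and the ratio of its 3′ arms was not formed because miR-26a-1-3p is listed at 0. TMM factors of female 3 were 1.33 to 1.41 with the other references against 1.21. The depth limits the 3′ arms most, at 92 to 556 counts per heart, and intervals and counts at this depth say nothing of absence.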
